A study of Arabidopsis thaliana with 12 samples.

Results

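Probes listed at 0 in 3 or more of 6 samples of Arabidopsis thaliana grown in normal light, and above a fixed intensity in every sample taken after 1 h of high light, were picked out of an array series and described one gene at a time. The members were chosen by the measured values themselves: a probe was kept if its deposited intensity was exactly 0 in 3 or more of the 6 normal light samples and 0.1 or more in all 6 high light samples. Of 3439 probes, 102 (2.97%) were kept, and 24 of them name a single gene in the platform annotation. The 12 samples are total RNA of the wild type, ecotype Columbia 0. The high light group was exposed to 1000 µE for 1 h, and the normal light group was grown at 80 µE and is labelled 0 h. No transgene or mutation is named for either group, no sample is labelled as kept at 80 µE for that hour, and so light and elapsed time cannot be told apart. The labels give no tissue or plant age, and it is unstated whether samples within a group are separate plants, so their spread may be technical. In bulk RNA, fewer cells of a type and less RNA per cell cannot be told apart.

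Strong light delivers more excitation energy to the chloroplast than carbon fixation can use. Reactive oxygen species, the redox state of the electron transport chain and other signals from the plastid then reach the nucleus, where they change the transcription of many genes. Early light-induced proteins, cytosolic ascorbate peroxidases and heat shock proteins are the textbook responders in leaves. Of a list of 13 genes of light stress, of these and other kinds, 0 were named by a listed probe, whether of a single gene or of several. Among the 13 were ELIP1, ELIP2, APX2 and HSP101. The probes not listed, 1877 in all, name no gene here, so the classical responders could not be set beside the genes below.

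The intensities have an arbitrary unit and run from 0 to a ceiling of about 100. Column medians lay between 0.338 and 0.357 in high light and between 0.115 and 0.130 in normal light, and each sample held 167 to 209 zeros in high light and 396 to 470 in normal light. A threshold of 0.1 was therefore met by 83.1% to 86.0% of probes in a high light sample, against 54.4% to 57.6% in a normal light sample. A gene listed at 0 is not thereby shown to be silent. AT5G65360, a histone H3 gene, was listed at 0 in 4 of 6 samples of high light and in 4 of 6 of normal light. These zeros do not show whether that gene was expressed. Of the green tissue markers with a probe of their own, PSBW, a small photosystem II subunit, stood at 47.1 to 73.3 in high light and 24.2 to 32.1 in normal light. PSAN, of photosystem I, stood at 2.86 to 4.00 in high light and 2.99 to 6.45 in normal light. PRK and SBPASE, both of the Calvin cycle, went opposite ways without overlap on the deposited scale, where the column medians differ. PRK had 1.11 to 1.17 in high light and 2.83 to 3.50 in normal light. SBPASE had 0.639 to 1.01 in high light and 0.161 to 0.424 in normal light. On that scale 44.0% of all probes were separated upwards, as SBPASE was, and 3.98% downwards, as PRK was. The markers are given on the deposited scale alone. These 4 were the measured ones of 7 markers, while the lists of root and flower markers, 4 genes each, had 0 listed probes.

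The intensities that chose the genes are those of the comparison itself. All values of the 2 groups are accordingly a description, with no test. The name "undetected in normal light" holds strictly for few of the probes: 9 of the 102 were at 0 in all 6 normal light samples, 15 in 5, 27 in 4 and 51 in 3. Of the 612 normal light values behind the 102 probes, 390 were 0 and 222 were above 0. The values above 0 had a median of 0.0457, and 82.0% of them were under 0.1. In 75 of the 102 probes no normal light value reached 0.1. In 97 probes every high light sample lay above every normal light sample, where 44.0% of all 3439 probes were separated in that direction and 3.98% in the other.

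Among the 24 named genes the highest mean intensity in high light was that of AT4G38040, of the exostosin family of glycosyltransferases. It stood at 0.727, 0.641, 0.883, 0.811, 1.13 and 1.10 in high light samples 1 to 6, a mean of 0.882 ± 0.198 (SD, n = 6). Normal light samples 1 to 6 gave 0, 0, 0.174, 0, 0.249 and 0.332. The groups did not overlap, but this gene also had the highest normal light value of the 24. High light samples 5 and 6 and normal light samples 5 and 6 were the highest of their groups.

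**Figure D1:**
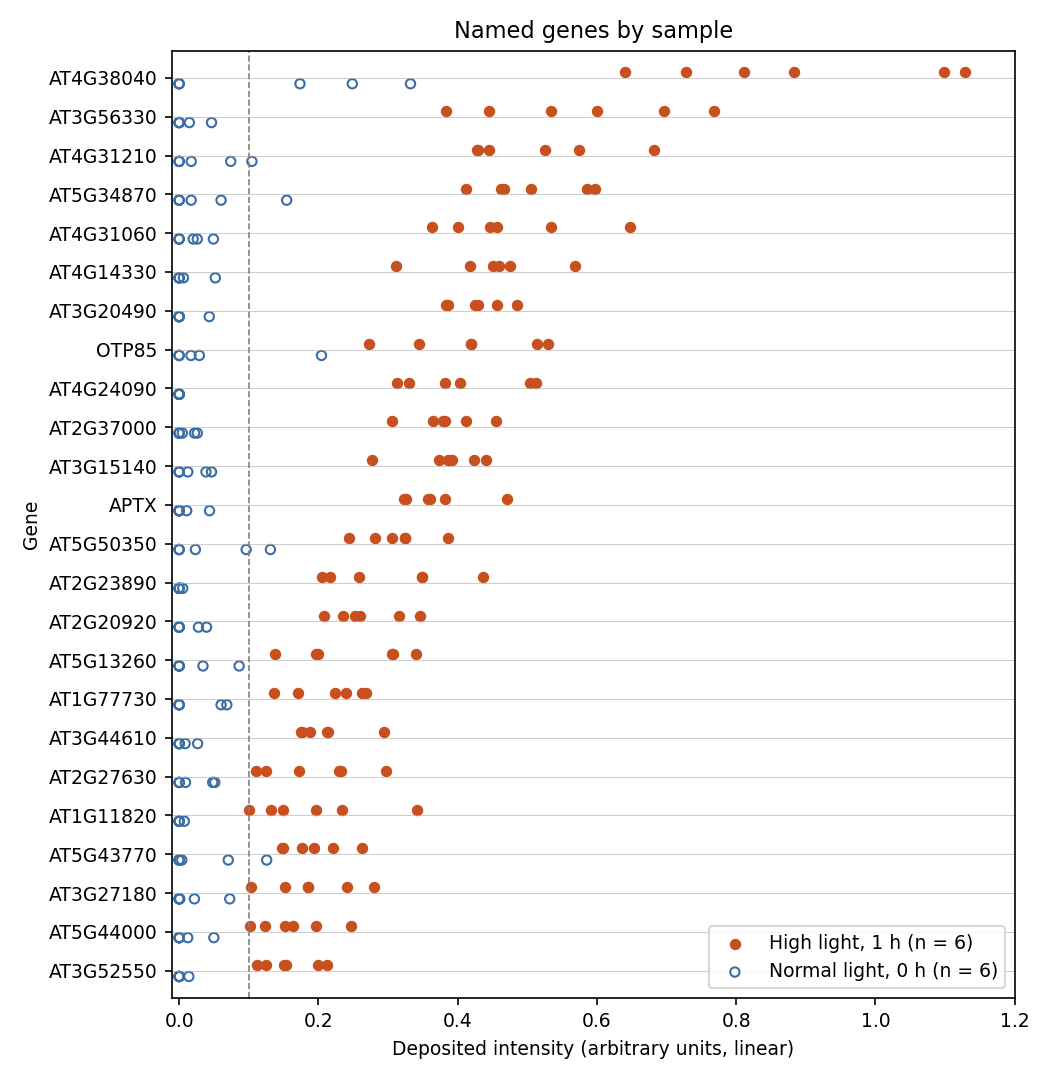
Deposited intensity (x axis, arbitrary units, linear scale) of the 24 genes with a probe of their own (y axis, ordered by mean in high light), with a filled point for each of 6 high light samples and an open point for each of 6 normal light samples; the dashed line marks 0.1. The filled points of every gene lie to the right of its open points, and AT4G38040 reaches 1.13 while AT3G52550 ends at 0.212.

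Of the named genes, 6 were grouped by a known or presumed role with DNA or RNA. Their means in high light ran from 0.370 to 0.571. AT3G56330, a tRNA methyltransferase that makes dimethylguanosine, had 0.534, 0.601, 0.769, 0.697, 0.445 and 0.383 in high light samples 1 to 6. In normal light it was at 0 in samples 1, 3, 4 and 5, with 0.0147 in sample 2 and 0.0465 in sample 6. Its high light samples 3 and 4 were the highest and samples 5 and 6 the lowest, whereas samples 5 and 6 were the highest for AT4G38040.

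AT4G31210 encodes a type IA DNA topoisomerase, an enzyme that relaxes DNA by cutting 1 strand. Its intensities were 0.444, 0.428, 0.525, 0.429, 0.575 and 0.682 in high light samples 1 to 6, and 0, 0, 0, 0.0174, 0.105 and 0.0741 in normal light samples 1 to 6. The 3 zeros fell in samples 1 to 3, and samples 5 and 6 were again the highest of both groups. AT5G34870, a zinc knuckle protein, was at 0.411, 0.462, 0.466, 0.505, 0.598 and 0.586 in high light and at 0, 0, 0.0602, 0, 0.154 and 0.0173 in normal light. Its high light samples 5 and 6 were the highest too, and its highest normal light value was in sample 5.

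OTP85, a pentatricopeptide repeat protein of plastid RNA editing, stood between 0.272 and 0.530 in high light, with a median of 0.419. In normal light it was at 0 in 3 samples, and its highest value was 0.204 in sample 1. That sample lay closer to the lowest high light value than to the other normal light samples, which ended at 0.029. AT3G15140, an exonuclease related to ERI-1, ranged from 0.277 to 0.441 in high light, with a median of 0.389, and reached at most 0.0465 in normal light. APTX (AT5G01310), named after human aprataxin, a DNA repair protein, ranged from 0.323 to 0.471 around a median of 0.359 in high light, and was at 0 in 4 normal light samples, with a highest value of 0.0436. For both genes the normal light values ended well under the high light range.

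Regulators of transcription or signalling made up 3 of the named genes. AT4G31060, a transcription factor of the AP2/ERF family, had 0.447, 0.362, 0.456, 0.400, 0.648 and 0.534 in high light samples 1 to 6. In normal light samples 1 to 6 it had 0, 0.0260, 0.0202, 0.0492, 0 and 0. No normal light sample of this gene reached 0.1, and high light sample 5 was the highest. AT2G37000, of the TCP family of transcription factors, kept within 0.305 to 0.456 in high light (mean 0.383 ± 0.0501, SD, n = 6) and ended at 0.0261 in normal light, with 3 samples at 0. AT3G44610, a protein kinase of the AGC family, was dimmer, at 0.175 to 0.294 in high light with a median of 0.2005, and at 0 in 4 normal light samples with a highest value of 0.0266.

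Leaving out the enzymes already given, 5 further ones lay lower than AT4G38040, and all but AT2G23890 had means under 0.2 in high light. AT2G23890, a 5′-nucleotidase of the HAD superfamily, ranged from 0.204 to 0.437 in high light with a median of 0.304, and in normal light its only value above 0 was 0.00516 in sample 4. AT1G11820, of glycosyl hydrolase family 17, ranged from 0.1001 to 0.341 with a median of 0.173 in high light, and its only normal light value above 0 was 0.00745. These were among the 4 named genes at 0 in 5 normal light samples. AT1G11820 also varied most among the high light samples, with a coefficient of variation of 45.3%, where the median of the 24 genes was 22.0%.

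AT5G44000, of the glutathione S-transferase family, ranged from 0.101 to 0.248 in high light with a median of 0.158, and ended at 0.0498 in normal light. For AT3G27180, of a family of S-adenosylmethionine-dependent methyltransferases, the range was 0.103 to 0.279 in high light with a median of 0.185, and the highest normal light value was 0.0727. AT2G27630, a relative of ubiquitin carboxyl-terminal hydrolases, ranged from 0.110 to 0.298 with a median of 0.2004 in high light and reached 0.0512 in normal light. In each of these 3 genes less than 0.1 separated the lowest high light sample from the highest normal light sample.

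AT4G14330, a kinesin of the phragmoplast, the structure that builds the new wall in dividing plant cells, had 0.474, 0.569, 0.312, 0.451, 0.459 and 0.417 in high light samples 1 to 6. In normal light it was at 0 in samples 1, 4, 5 and 6, with 0.0520 in sample 2 and 0.00615 in sample 3. Sample 2 was thus the highest in both groups. AT2G20920, a chaperone-like protein, ranged from 0.209 to 0.347 in high light and up to 0.0394 in normal light. AT1G77730, with a pleckstrin homology domain, ranged from 0.136 to 0.268 in high light and up to 0.0685 in normal light. AT5G43770, a proline-rich protein, had the narrowest gap of this group, from a lowest high light value of 0.147 to a highest normal light value of 0.126.

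AT4G24090, for which no role is given here, was the single named gene at 0 in all 6 normal light samples. In high light samples 1 to 6 it had 0.403, 0.504, 0.313, 0.330, 0.512 and 0.381, a mean of 0.407 ± 0.0845 (SD, n = 6). The other 8 probes at 0 in all normal light samples had means of 0.210 to 0.413 in high light, and 1 of them was brighter than AT4G24090. AT3G20490 was the steadiest of the 24 genes, at 0.383 to 0.485 in high light with a coefficient of variation of 9.31%, and its only normal light value above 0 was 0.0433. AT3G52550 was the dimmest, at 0.112 to 0.212 in high light against a single normal light value above 0 of 0.0140. AT5G50350 and AT5G13260 ranged from 0.243 to 0.387 and from 0.138 to 0.340 in high light, and ended at 0.131 and 0.0862 in normal light.

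Mean intensities of the 102 probes in high light ran from 0.146 to 1.31 with a median of 0.341, and 18 lay under 0.2, 20 at 0.5 or more and 3 at 1 or more. None of those 3 names a single gene. The brightest, probe 3057, is not listed in the annotation and had 1.09 to 1.59 in high light and 0 in 4 normal light samples, with 0.0201 as the highest there. Ranked within each high light sample, the median probe of the 102 stood at the 48.3rd percentile of all probes, and the range was from the 22.6th to the 86.9th. The rule itself keeps out the dimmest probes, so these ranks follow from it in part. The 1983 other probes that were 0.1 or more in all high light samples and had means within the same range were brighter, with a median intensity of 0.425. The coefficient of variation over the 6 high light samples had a median of 20.7% for the 102 probes, and of 18.3% for those 1983.

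The threshold divided a continuous range. Of 398 probes at 0 in 3 or more normal light samples, 211 were also at 0 in some high light sample, 85 were above 0 throughout high light but under 0.1 in some sample, and 102 (25.6%) were kept. The named genes just inside the threshold were AT1G11820, AT5G44000 and AT3G27180, with lowest high light values of 0.1001, 0.101 and 0.103. Those just outside were AT2G38500, AT4G12270 and AT1G33250, with 0.0932, 0.0928 and 0.0793. Of the probes at 0 in exactly 3, 4, 5 and 6 normal light samples, 27.0%, 25.2%, 25% and 21.4% were kept. The share kept was not larger where more samples were at 0.

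**Figure D2:**
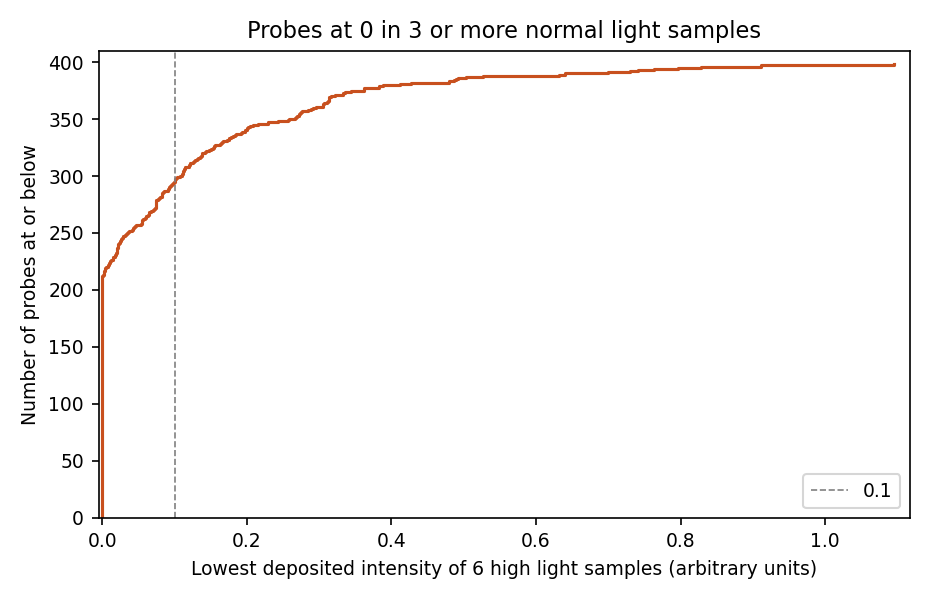
Number of probes (y axis) whose lowest intensity of the 6 high light samples is at or below the value on the x axis (arbitrary units, linear), for the 398 probes at 0 in 3 or more normal light samples; the dashed line marks 0.1. The line starts at 211 probes at 0, and it crosses 0.1 without a step.

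**Figure D3:**
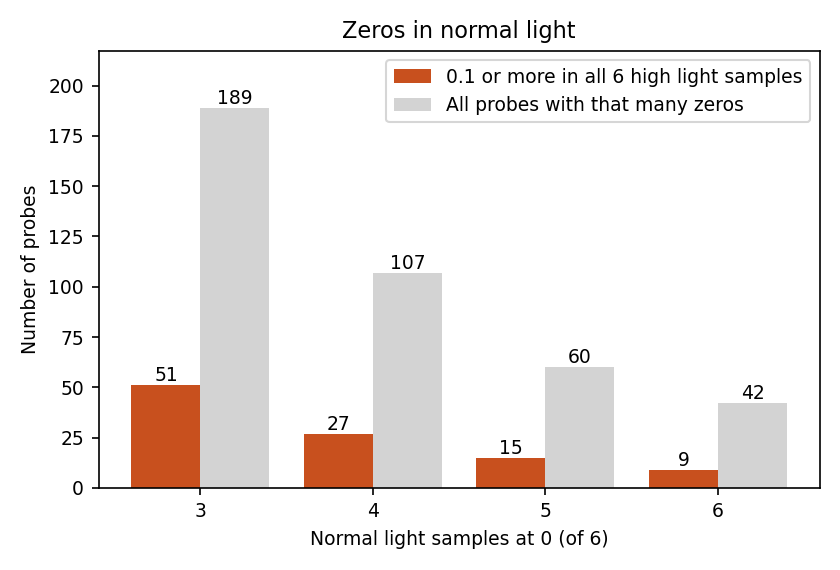
Number of probes (y axis) at 0 in exactly 3, 4, 5 or 6 normal light samples (x axis), for those at 0.1 or more in all 6 high light samples (dark bars) and for all probes with that many zeros (light bars). The dark bars hold 51, 27, 15 and 9 probes and the light bars 189, 107, 60 and 42.

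The reverse choice, 0 in 3 or more high light samples and 0.1 or more in all 6 normal light samples, was met by 0 probes. Fewer probes could meet it. For the choice described above, 398 probes were at 0 in 3 or more normal light samples and 2529 reached 0.1 in all high light samples, and for the reverse choice these numbers were 176 and 1263. Of the 176 probes, 136 were at 0 in 3 or more normal light samples as well. With each normal light sample cut at the intensity that leaves as many probes as 0.1 does in high light (84.4%), a setting chosen after the data were seen, the reverse choice was met by 1 probe.

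The column medians differ between the groups, so the 24 genes were also followed on 2 common scales, with a deposited 0 kept at 0. With columns scaled to a common median 74 probes met the rule, and after quantile normalisation 70 did, all of them among the 102. The deposited zeros were kept, so only the high light threshold was applied anew and the choice by zeros was not tried again. Both scales lowered the high light values, so probes could leave the set but not join it. That all lay among the 102 therefore follows from the construction. The separation of the groups was more sensitive. It held for 48 of the 74 and for 49 of the 70, where 10.1% and 14.5% of all probes were separated upwards on these scales. On both scales normal light values above 0 were higher than as deposited and high light values were lower, with a median of 0.259 and 0.264 over the probes that met the rule, against 0.341 as deposited.

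Of the 24 named genes, 16 met the rule on both common scales, and 12 of these were also without overlap on both. Over all probes, 10.1% were separated upwards with the common median and 14.5% after quantile normalisation. The normal light zeros that chose the genes were kept at 0, which favours separation, so the count is a description. The 12 were AT3G56330, AT4G31210, AT4G31060, AT4G14330, AT3G20490, AT4G24090, AT2G37000, AT3G15140, APTX, AT2G23890, AT2G20920 and AT3G44610. AT4G38040 and OTP85 overlapped on both scales. After quantile normalisation the lowest high light sample of AT4G38040 stood at 0.478 and its highest normal light sample at 0.497, and for OTP85 these were 0.186 and 0.390. AT5G50350 overlapped on both scales as well, and AT5G34870 only with the common median, where 0.279 in high light stood against 0.282 in normal light. The 8 genes that no longer met the rule were AT5G13260, AT1G77730, AT2G27630, AT1G11820, AT5G43770, AT3G27180, AT5G44000 and AT3G52550, all with means under 0.25 in high light on the deposited scale.

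**Figure D4:**
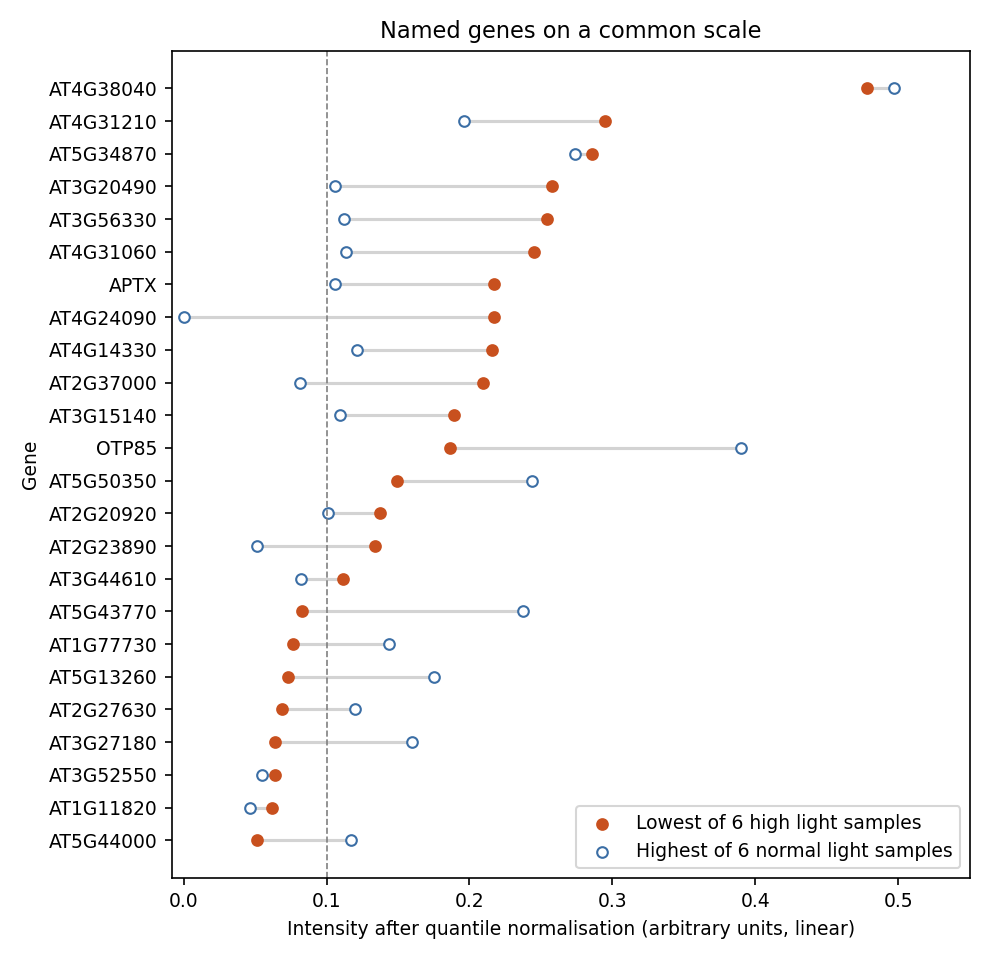
Intensity after quantile normalisation (x axis, arbitrary units, linear) of the 24 named genes (y axis), with a filled point for the lowest of 6 high light samples, an open point for the highest of 6 normal light samples and a grey line between them; the dashed line marks 0.1. OTP85 has its filled point left of the open one, at 0.186 against 0.390. In 15 genes the filled point lies right of the open one, as for 14.5% of all probes. The widest such gap, in AT4G24090 at 0.217 against 0, depends on a deposited 0 being kept at 0. Values just above 0 were raised, as for the highest normal light value of AT2G23890, from 0.00516 to 0.0515.

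The zeros were spread over all 6 normal light samples. Of the 102 probes, 71, 68, 68, 69, 55 and 59 were at 0 in normal light samples 1 to 6, so samples 5 and 6 held the fewest. Over all 3439 probes the same samples had 415, 396, 450, 470, 411 and 436 zeros, and there samples 5 and 6 did not stand lowest together. Samples 1 and 2, 3 and 4, and 5 and 6 were set apart because earlier results of these data had pointed to their likeness. Their values are therefore a description and no separate evidence of it. These 3 pairs shared 47, 49 and 38 zeros of the 102 probes. The 12 other pairs of samples shared 32 to 47. Over all probes these 3 pairs shared 217, 232 and 206 zeros, against 154 to 193 in the other pairs. In high light, log2 intensities of the 102 probes correlated at 0.855 to 0.896 within these 3 pairs and at 0.703 to 0.855 in the other 12, as a description over probes that share the brightness of their spots.

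**Figure D5:**
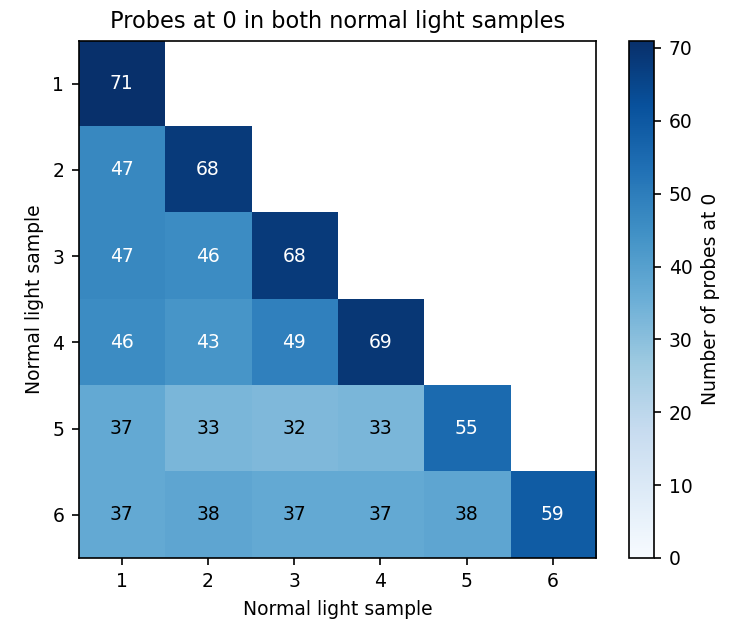
Number of the 102 probes at 0 in both of 2 normal light samples (x and y axes, samples 1 to 6; colour and printed number), with the zeros of a single sample on the diagonal. Pairs among samples 1 to 4 share 43 to 49 zeros and pairs with sample 5 or 6 share 32 to 38.

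The probes without a single gene make up the rest. Of the 102, 19 (18.6%) list several genes, 15 of them 2 genes and 4 of them 3, and 59 (57.8%) are not listed. A single gene is listed for 23.5% of the 102 and for 20.1% of all probes, of which 25.3% list several and 54.6% are not listed. The 5 probes with overlapping groups are all of this kind. In probe 2127, which is not listed, high light gave 0.143 to 0.616, while normal light gave 0 in samples 1 to 4, 1.28 in sample 5 and 0.432 in sample 6. It thus met the rule although normal light sample 5 was brighter than every high light sample and sample 6 lay within their range. Probe 2266, also not listed and at 0 in all normal light samples, varied most in high light, at 0.562, 0.560, 0.228, 0.128, 0.128 and 0.1197 in samples 1 to 6, a coefficient of variation of 74.9%.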

How the data were processed

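The values deposited by the authors are linear intensities. How they were made (array type, background, scaling) is not given in the sources used. Groups and sample numbers came from the titles. Genes were named from the platform annotation (692 probes with 1 gene, 870 with several, 1877 not listed), updated by gene identifier through the RefSeq table of TAIR10.1, which matched 690 of the 692. No coordinates or sequences are given. Counts, means, SDs and ranks were computed with pandas 2.3.3 and numpy 2.4.6 in Python 3.11.15, on deposited values unless stated. Every probe of 1 gene that met the rule was named. Values by sample are given for the 6 with the highest mean in high light and for any at 0 in all normal light samples. Of 103 probes that met the rule, 1 is not reported here. A planned grouping by words in gene descriptions placed 0 of the 24 genes in a family, since the reference names held no such words for them. Of the 692 probes with 1 gene, 658 were placed in no family, the 24 among them. Roles are general background knowledge, and the role groups were made after the genes were known. The rule, members and lists were chosen with earlier results of these data known. The groups were not tested against each other, because the rule uses that contrast. Samples far from the rest of their group were marked where the gap to the next sample exceeded 0.625 of the group's range. The alternatives were other numbers of zeros, other thresholds, 2 scalings and each sample left out. The number of arrays limits the precision.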

Additional observations from a re-analysis of the deposited data

Results flagged for a closer look

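A sample stood far from the other 5 of its group in 1 of 24 groups of 6 high light values of the named genes and in 11 of 23 groups of normal light values. For values chosen without regard to their size, about 1 group in 20 would be so by chance. That share does not apply to the normal light groups, where the rule requires 3 or more zeros, and the high light values were also chosen by the rule, so the marks are a description. Parentheses give the distance to the next sample as a share of the group's range, on log2 values in high light and on linear values in normal light. In high light AT3G15140 stood at 0.277 in sample 5, against 0.374 to 0.441 in the others (0.645). The other 11 marks were each the highest of the 6 normal light samples. For AT3G20490, AT2G23890, AT1G11820 and AT3G52550, 1 sample was above 0 and the share was 1 by construction, with that sample at 0.0433, 0.00516, 0.00745 and 0.0140. OTP85 had 0.204 in sample 1 against at most 0.0290 in the others (0.858), and AT4G14330 had 0.0520 in sample 2 against at most 0.00615 (0.882). For AT5G44000 sample 2 stood at 0.0498 against at most 0.0123 (0.753), and for AT3G27180 sample 2 stood at 0.0727 against at most 0.0219 (0.698). APTX had 0.0436 in sample 3 against at most 0.0109 (0.751), and AT3G44610 had 0.0266 in sample 3 against at most 0.00863 (0.675). AT3G56330 had 0.0465 in sample 6 against at most 0.0147 (0.684). Sample 2 of normal light was the highest in 5 of these 11 groups.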

How the results depend on the processing

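The 102 probes, their 97 without overlap and their median intensity of 0.341 in high light follow the rule's own numbers. With 2, 4 or 6 zeros required, 226, 51 and 9 probes met it, of which 198, 50 and 9 did not overlap, and the medians with 4 and 6 zeros were 0.310 and 0.288. A threshold of 0.05 gave 141 probes, 116 without overlap and a median of 0.250. One of 0.2 gave 58 probes, 58 without overlap and a median of 0.418. With values up to 0.01 counted as 0 there were 146 probes, 134 without overlap and a median of 0.307. With values up to 0.05 there were 457 probes, 399 without overlap and a median of 0.298. These shifts come from the settings' own construction. The common median left 48 of 74 probes without overlap, and quantile normalisation 49 of 70, with medians of 0.259 and 0.264 on other scales. On these scales 10.1% and 14.5% of all probes were separated upwards. The reverse choice gave 8 probes with 2 zeros, 1 with the normal light threshold matched by rank and 0 under the other alternatives run. The setting by rank was chosen after the data were seen. Leaving out 1 sample gave 72 to 114 probes, 69 to 108 without overlap, 0 reversed and medians of 0.302 to 0.352. The low counts came without a normal light sample, where 3 zeros of 5 were required. No paired analysis was possible because the results are counts and descriptions from no test, so no block could be fitted. Compared number by number, 99 of the 102 probes were higher in high light for all 6 sample numbers. The rule largely fixes this count, and the 97 probes without overlap meet it by construction. The same count was not made over all probes, of which 44.0% had every high light sample above every normal light sample. Whether equal numbers mark paired samples is not stated by the titles.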

Other observations

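Probe numbers that met the rule often stood side by side. There were 11 pairs of consecutive numbers among the 102 probes, and 20 of the probes had another of the 102 directly before or after them. Of the 150 neighbouring positions in the table, 22 (14.7%) were held by another of the 102, which make up 2.97% of all probes. Probes at 0 in 3 or more normal light samples also stood side by side, with 22.1% of the neighbouring positions held by such a probe and 11.6% of all probes being of this kind. The pairs with both probes listed numbered 3, and 0 of these shared a gene. Among the consecutive numbers were the probes of AT4G38040, AT5G44000 and OTP85, each beside 1 other of the 102. Whether probe numbers follow positions on the array is not stated by the labels, and the part of position in these values was not tested.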
